A study of Mus musculus with 27 samples.

Results

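Camk2a, Cyp4f39, St8sia1, Fras1 and Sult1d1 are 5 genes, of 26487 in the islet count table, that were chosen by their counts: they read much lower in 8-week islets with a beta-cell-specific mutation of the SD domain of Nkx2.2 than in 8-week control islets. The 8-week counts were the values that chose them, with no threshold named, so the 8-week values are given as a description, with no test. The same genes were then followed in knockout islets, embryonic pancreas, neural progenitors and the Nkx2.2 binding sites. None of these entered the rule of the choice, but the genes were chosen with earlier results of these data known.

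The study comprised 27 samples from mouse, which fall into 11 groups. RNA was profiled in 8-week islets (2 wildtype controls, 3 beta-specific Nkx2.2 SD mutants, here betaSDmut), 4-week islets (2 controls, 2 labelled betaKO), whole pancreata at E15.5, a stage of embryonic development (3 wildtype controls, 4 Nkx2.2 SD mutants) and day-4 progenitors derived from mouse embryonic stem cells (pMN, 3 uninduced samples of the iNkx2.2 line; iNkx2.2, 3 samples, and iSDmut, 2 samples, whose FLAG-tagged wildtype or SD-mutant Nkx2.2 had been switched on by 1 µg/ml doxycycline for about 16 h). Nkx2.2 chromatin immunoprecipitation (ChIP) had 2 replicates and 1 input in MIN6, a mouse beta-cell line. The Cre driver of the islet mutants, whether islets of several animals were pooled, and whether a stem cell line is 1 clone are not given in the sources used here. Where nothing says that samples of a group came from separate animals or cultures, p-values measure only the spread between these samples. GEO's labels give genomic DNA as the molecule of all 4 samples of 4-week islets, but the columns of these samples hold counts per gene as for the older islets.

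Nkx2.2 is a homeodomain transcription factor that beta cells need for their formation and for keeping their identity, and its SD domain is a short conserved stretch outside the DNA-binding homeodomain. The 5 genes belong to different pathways. Camk2a encodes the alpha subunit of calcium/calmodulin-dependent kinase II, which is best known from neurons, and Cyp4f39 encodes a cytochrome P450 of the family that hydroxylates fatty acids at their omega end. St8sia1 makes the ganglioside GD3 by adding sialic acid to GM3. Fras1 is a large extracellular protein of basement membranes that works with Frem1 and Frem2 in the Fraser complex, and Sult1d1 is a cytosolic sulfotransferase of small molecules.

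Library totals ran from 12398041 to 32385406 counts in the 9 islet libraries, from 38447596 to 41840638 in the 7 embryonic libraries and from 17757991 to 46840701 in the 8 progenitor libraries. Islet identity held in all 9 islet libraries: 11 of 11 beta-cell marker genes had counts in each, summing to between 238000 and 244000 TMM-scaled CPM, counts per 1000000 after scaling of the libraries, in 8-week controls, 200000 and 220000 in betaSDmut, 212000 and 216000 in 4-week controls and 167000 and 180000 in betaKO. The gene that was targeted checks none of the islet labels, because gene-level Nkx2-2 reads were kept: the betaKO libraries had 64.3 and 92.8 CPM against 76.2 and 103 in their controls (log2 fold change -0.18, standard error 0.237, edgeR adjusted p = 0.779). They are therefore called the libraries labelled betaKO. In bulk islets, fewer cells of a type and less RNA per cell cannot be told apart.

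In the 8-week islets Camk2a, Cyp4f39 and St8sia1 came close to disappearing, while Fras1 and Sult1d1 kept a clear part of their level. Camk2a stood at 12 and 16.7 CPM in the controls and at 0.125, 0.0826 and 0.797 CPM in betaSDmut, where it rested on 3, 2 and 22 reads. Cyp4f39 stood at 15.4 and 20.4 CPM in the controls and at 0.749, 0.454 and 0.254 CPM in betaSDmut. St8sia1 was at 39.8 and 44.6 CPM in controls and at 3.54, 0.785 and 2.06 CPM in betaSDmut. For these 3 genes every betaSDmut library lay far below both controls, and their residual counts varied several-fold between the mutant libraries.

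Fras1 was at 49.9 and 54.1 CPM in the 8-week controls and at 10.1, 9.58 and 11.5 CPM in betaSDmut. Sult1d1 was at 38.6 and 37.4 CPM in controls and at 11.9, 12.4 and 11 CPM in betaSDmut. Both sets of mutant libraries were tightly grouped, so the drop was partial and even rather than near-complete. Relative to control, the fitted share remaining was 2.46% for Camk2a, 2.69% for Cyp4f39, 5.03% for St8sia1, 20% for Fras1 and 30.8% for Sult1d1. The log2 fold changes behind these shares were -5.34 (standard error 0.718) for Camk2a, -5.22 (0.358) for Cyp4f39, -4.31 (0.472) for St8sia1, -2.32 (0.108) for Fras1 and -1.70 (0.0802) for Sult1d1. The groups did not overlap for any of the 5, as for 22.7% of the 15413 genes tested in that direction, and 3.87% of those genes were called lower; since the choice used this contrast, nothing is read from either count.

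**Figure D1:**
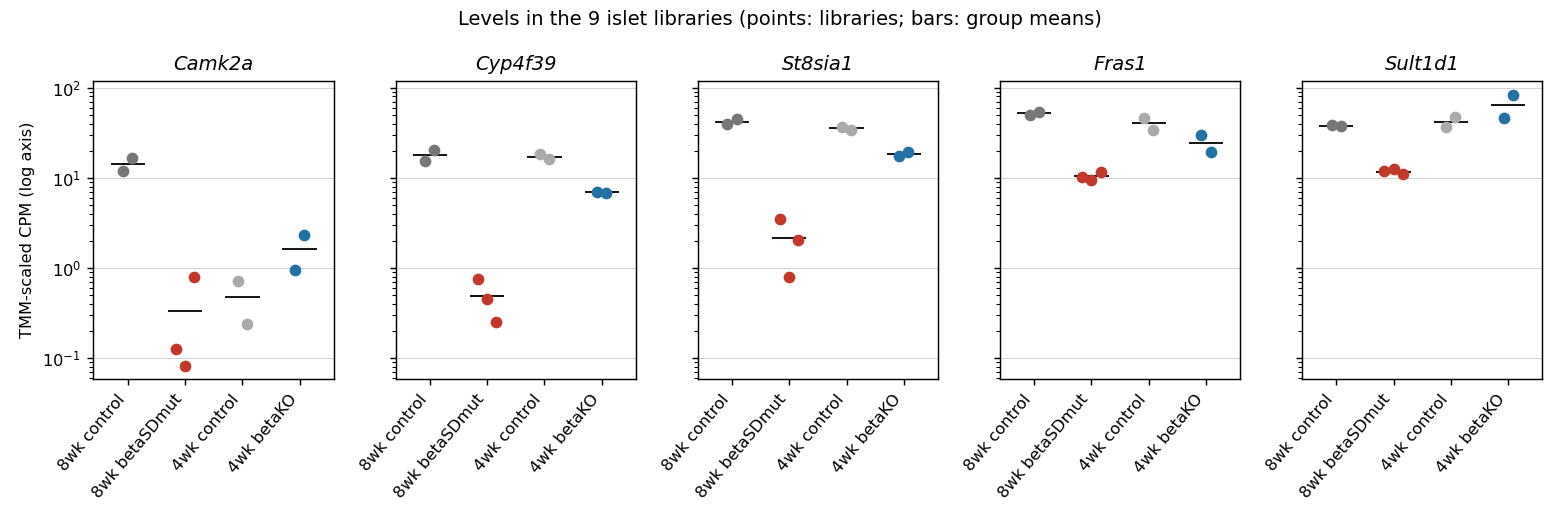
TMM-scaled CPM on a log axis in each of the 9 islet libraries (points) with group means (bars), 1 panel per gene. Camk2a is above 10 CPM in the 8-week controls only, Cyp4f39, St8sia1 and Fras1 lie lower in both mutants than in their controls, and Sult1d1 is low only in the 8-week betaSDmut libraries.

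No numeric cutoff separates these genes from the rest. Over all 15413 genes tested at 8 weeks, Camk2a, Cyp4f39, St8sia1, Fras1 and Sult1d1 ranked 13, 14, 27, 88 and 186 from the lowest log2 fold change. Of these genes, 494 were called lower with no overlap between the groups and an average of at least 2 log2 CPM. Among those 494, Camk2a, Cyp4f39 and St8sia1 ranked 1, 2 and 3, Fras1 ranked 16 and Sult1d1 ranked 42. The ranks, and the calls behind the 494, rest on the same 8-week values that chose the genes. They describe the choice and are no test of it. The genes that followed St8sia1 included Mlph (-4.07), a melanophilin gene of vesicle transport, T2 (-3.75), Ust (-3.26), a sulfotransferase acting on glycosaminoglycans, and Hspa12a (-3.09). Fras1 sat between Cntnap2 (-2.33) and Dmpk (-2.25), and Sult1d1 between Ppp2r2c (-1.71) and Snhg11 (-1.69).

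Per transcript length, 4 of the 5 genes lay near the middle of the genes expressed in control islets, and Sult1d1 above it. In the authors' FPKM table the 8-week control means were 21.3 ± 0.15 (SD, n = 2) for Sult1d1, 8.84 ± 1.78 for Cyp4f39, 6.22 ± 0.428 for St8sia1, 4.01 ± 0.261 for Fras1 and 3.49 ± 0.908 for Camk2a, beside a median of 5.6 FPKM over the 17507 genes above 0. Fras1 and Camk2a did not differ beyond their spread in that order, whereas Sult1d1 lay above the other 4. In betaSDmut the order stayed the same for Sult1d1 (6.7 ± 0.351, n = 3), but Fras1 (0.775 ± 0.0976) then lay above St8sia1 (0.305 ± 0.19), Cyp4f39 (0.222 ± 0.145) and Camk2a (0.114 ± 0.0937), and the last 3 did not separate beyond their spread.

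The 4-week controls showed that Camk2a differs from the other genes already between the control groups. It was at 0.713 and 0.239 CPM in the 4-week controls, 24 and 4 reads, which overlaps the 8-week betaSDmut range and lies far below the 8-week controls. Cyp4f39 (18.2 and 16 CPM), St8sia1 (37 and 33.9 CPM), Fras1 (46.6 and 33.7 CPM) and Sult1d1 (36.9 and 47.5 CPM) were in the range of the 8-week controls or close to it. Set against the 4-week controls, in a comparison added after the data were seen and in which age and genotype cannot be told apart, betaSDmut gave a log2 fold change of -0.56 (standard error 0.901) for Camk2a. The same comparison gave -5.14 (0.299) for Cyp4f39, -4.06 (0.411) for St8sia1, -1.95 (0.193) for Fras1 and -1.84 (0.234) for Sult1d1. The large value of Camk2a thus rested on the 2 libraries of the 8-week controls, and those of the other 4 genes did not.

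The authors' deposited tables held the same contrast between the genes. In the authors' deposited table of the 8-week comparison all 5 genes were marked lower, with a log2 fold change of -5.91 for Camk2a. In the authors' deposited table that joins both ages, betaSDmut against control gave -3.4 for Camk2a with p = 0.272 and no call, while Cyp4f39 (-5.28), St8sia1 (-4.42), Fras1 (-2.14) and Sult1d1 (-1.77) stayed marked lower.

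The second islet mutant, the libraries labelled betaKO at 4 weeks, asked whether the genes are also low when Nkx2.2 is removed from beta cells. Cyp4f39 and St8sia1 fell, by much less than in betaSDmut, Fras1 did not pass the test with both values below the controls, and Camk2a and Sult1d1 did not pass with higher mean values. Of the 14942 genes tested 0.75% were called lower, beside 2 of these 5 genes.

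Cyp4f39 was at 18.2 and 16 CPM in the 4-week controls and at 6.92 and 6.85 CPM in betaKO. The groups did not overlap and the betaKO libraries were nearly equal, at a log2 fold change of -1.31 (standard error 0.153, edgeR adjusted p = 0.0331), a share of 40.3% remaining. St8sia1 was at 37 and 33.9 CPM in controls and 17.4 and 19.4 CPM in betaKO, which was -0.95 (0.119, edgeR adjusted p = 0.0372), a share of 51.9%. Both calls lay close to the threshold with 2 libraries a group. The Cyp4f39 call was lost without 4wk control replicate 1 or 2 or betaKO replicate 2, with edgeR adjusted p up to 0.183, and remained in 7 of 10 alternatives. That of St8sia1 was kept in 3 of 10, with edgeR adjusted p up to 0.302, and was lost without any 1 of the 4 libraries.

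Fras1 was at 46.6 and 33.7 CPM in the 4-week controls and at 29.6 and 19.5 CPM in betaKO. Both betaKO libraries lay below both controls, as for 24.5% of all genes tested, and the log2 fold change of -0.71 (standard error 0.263) had an edgeR adjusted p of 0.319. Camk2a went the other way, from 0.713 and 0.239 CPM to 0.947 and 2.33 CPM in betaKO. Its groups did not overlap, as for 23% of genes in that direction, but the log2 fold change of 1.67 (0.71) rested on 4 to 30 reads a library and had an edgeR adjusted p of 0.353. Leaving out each library in turn moved it between 0.91 and 2.74, with none of these passing.

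Sult1d1 was at 36.9 and 47.5 CPM in the 4-week controls and at 45.7 and 84 CPM in betaKO, with overlapping groups (log2 fold change 0.62, standard error 0.348, edgeR adjusted p = 0.499). The higher value came from betaKO replicate 2, without which the log2 fold change was 0.12. That library also stood apart for Sult1b1, another cytosolic sulfotransferase, which had 32.7 CPM there and at most 0.769 CPM in the other 8 islet libraries. In the authors' deposited joint table betaKO was marked higher than betaSDmut for Cyp4f39, St8sia1, Fras1 and Sult1d1 but not for Camk2a, and betaKO against control was marked lower for Cyp4f39 (-1.32) and St8sia1 (-1.07) only. The difference between the mutants was not tested here for these genes, because it contains the contrast that chose them.

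**Figure D2:**
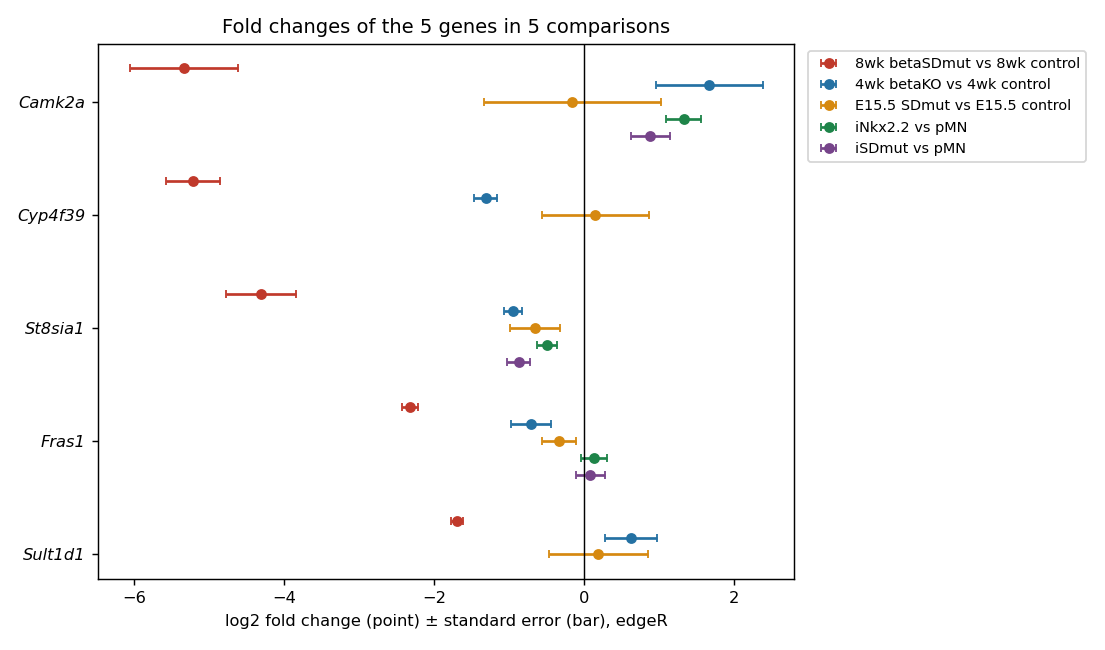
Log2 fold changes (points) with standard errors (bars) from edgeR for the 5 genes in 5 comparisons, with a line at 0. Cyp4f39 and Sult1d1 have no progenitor points because they did not pass the filter on low counts there.

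Marker sums of other cell types differed between the islet libraries. The summed level of 13 acinar enzyme genes was 13300 and 8010 CPM in 8-week controls and 1090, 2080 and 10800 CPM in betaSDmut, with overlapping groups. It was 11100 and 5990 CPM in 4-week controls against 41100 and 14400 CPM in betaKO. None of the acinar genes was called, of 12 tested at 8 weeks and 13 in betaKO. Replicate 3 of betaSDmut, with the most acinar RNA of its group and about the level of the controls, had the highest Camk2a (0.797 CPM) and the lowest Cyp4f39 (0.254 CPM) of the 3, and Fras1 and Sult1d1 close to the other 2. Without it the log2 fold change at 8 weeks was -7.04 for Camk2a. The same library had the highest sum of 6 immune-cell markers, 338 CPM against 81.2 and 83.3 CPM in the other 2 and 136 and 142 CPM in controls. Of these 6 markers 2 were called lower in betaSDmut. In betaKO they summed to 46.3 and 147 CPM against 230 and 94.9 CPM in its controls. The 7 alpha-cell markers summed to 64800 and 52900 CPM in betaKO against 30800 and 26500 CPM in its controls, with 2 of 7 called higher, and 2 of 11 beta-cell markers were called lower there. In betaSDmut 4 of 11 beta-cell markers were called lower. Neuron markers, given because Camk2a is a neuronal gene, summed to 219 and 261 CPM in 8-week controls and to between 272 and 288 CPM in betaSDmut, all 8 detected in every islet library. Their sum and their single genes differed in direction: 5 of the 8 had a log2 fold change below 0, with a median of -0.61, and 1 was called higher.

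The 4 delta-cell markers summed to 3090 and 2080 CPM in 8-week controls and to between 4950 and 6520 CPM in betaSDmut, with 1 of 4 called higher. In betaKO they summed to 6430 and 5130 CPM against 3440 and 1890 CPM, with 2 of 4 called higher. The 2 PP-cell markers summed to 10900 and 8310 CPM in betaKO against 3480 and 3560 CPM in its controls, with 1 of 2 called higher. The 7 mesenchyme markers went in opposite directions in the mutants: 213 and 277 CPM in 8-week controls against 171, 155 and 107 CPM in betaSDmut, with none called, and 227 and 208 CPM in 4-week controls against 352 and 432 CPM in betaKO, with 2 of 7 called higher. The part of these cell types in the values of the 5 genes was not tested.

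Across the 9 islet libraries Cyp4f39, St8sia1 and Fras1 had nearly the same profile and Camk2a a different one. Pearson's r of log2 CPM was 0.971 between Cyp4f39 and St8sia1, 0.946 between Cyp4f39 and Fras1 and 0.937 between St8sia1 and Fras1. For Camk2a r was between 0.498, with Sult1d1, and 0.698, with Fras1. These libraries share the 4 groups and the step by which the genes were picked, so the values only describe the profiles. Among 11712 genes with an average of at least 2 log2 CPM, those most like each gene were Gm2274, Gm4791 and Hspa12a for Cyp4f39 (r from 0.985 to 0.986), Gabbr2, Hspa12a and Egfr for St8sia1 (0.977 to 0.986), Gm2260, Vasn and Hspa12a for Fras1 (0.973 to 0.978), Rxra, Anpep and Ugt2b34 for Sult1d1 (0.967 to 0.978) and Snhg11, Acadm and Loxl2 for Camk2a (0.929 to 0.941). Hspa12a, a member of the Hsp70 family, was thus named for 3 of the 5 and was itself called lower in betaKO (log2 fold change -0.78, edgeR adjusted p = 0.0468). The search for similar profiles used the betaKO libraries and their controls too, so nothing further is read from that call.

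Of 73 tested relatives of the 5 genes, edgeR called 10 in betaSDmut, 2 higher and 8 lower, beside 7.94% of all genes called in either direction. DESeq2 called 22 of the 73, beside 1999 of 16946 genes. In edgeR 30 of the 73 had an unadjusted p under 0.05, beside 25.7% of all genes. Npnt was the only 1 of the 9 called relatives with alternatives run (all but Hexa) whose call was kept without either 8-week control, in 12 of 12 alternatives. Among 18 genes of calmodulin, its kinases, their inhibitors and calcineurin 2 were lower and none higher, with a median log2 fold change of 0.05 against 0.01 over all genes. The other kinase II subunits did not pass. Camk2b, the beta subunit, was the main one in islets at 242 ± 5.16 CPM (SD, n = 2) in controls and 282 ± 21 CPM (n = 3) in betaSDmut (log2 fold change 0.21, edgeR adjusted p = 0.219). Camk2d (0.04, standard error 0.128) and Camk2g (0.06, standard error 0.0953) did not pass either. In the controls Camk2a, at 3.49 FPKM, stood beside 76.5 FPKM of Camk2b.

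Camkv, a kinase-like protein without kinase activity that is known from neurons, repeated the pattern of Camk2a. It had 37 and 68 reads in the 8-week controls (1.77 and 2.95 CPM) and 0 reads in all 3 betaSDmut libraries, at least 19.8-fold lower when the mutant mean is set to a floor of 3 counts a library. It also had 0 reads in both 4-week controls and 1 and 7 reads in betaKO. Camk2n1, an inhibitor of kinase II, fell from 256 and 250 CPM to 175, 168 and 160 CPM (log2 fold change -0.60, standard error 0.0724, edgeR adjusted p = 0.0094). The call of Camkv was lost without either control (adjusted p up to 0.172), and that of Camk2n1 also without betaSDmut replicate 2 (up to 0.132). It read 221 and 245 CPM in the 4-week controls and 166 and 152 CPM in betaKO, where it was not called.

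Ganglioside genes moved in both directions in betaSDmut, 2 higher and 3 lower of 17, with a median log2 fold change of -0.02. St3gal5, which makes GM3, the substrate of St8sia1, did not pass (0.19, edgeR adjusted p = 0.536), nor did B4galnt1, the next branch enzyme (0.78, edgeR adjusted p = 0.68), whose betaSDmut libraries ran from 0.916 to 7.79 CPM. St8sia5, which adds further sialic acids to gangliosides, fell from 19.2 and 21.3 CPM to 6.7, 7.47 and 7.57 CPM (-1.49, edgeR adjusted p = 0.0029). St8sia3, another sialyltransferase of the St8sia family, rose from 47.8 CPM in both controls to 87.3, 85.8 and 80.8 CPM (0.82, edgeR adjusted p = 0.00406). Ugcg, which makes the glucosylceramide that gangliosides are built on, rose (0.49, edgeR adjusted p = 0.0139), and St3gal1 fell (-1.04, edgeR adjusted p = 0.0257). The fifth, Hexa, a lysosomal hexosaminidase subunit, fell by 0.44 on the log2 scale. The calls of St8sia5 and St8sia3 were lost without either control (adjusted p up to 0.062 and 0.0729), and those of Ugcg and St3gal1 also without betaSDmut replicate 2 (up to 0.162 and 0.227).

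Of 19 genes of the Fraser complex and basement membranes 2 were lower in betaSDmut and none higher, with a median log2 fold change of -0.38. The mesenchyme markers, whose cells also make basement membrane, had a log2 fold change below 0 in 7 of 7, with a median of -0.91, and their part in this was not tested. Npnt, nephronectin, a basement membrane ligand of integrins, fell from 36.9 and 40.3 CPM to 13.4, 12.9 and 12 CPM (-1.60, edgeR adjusted p = 0.00114). Col4a1, a collagen IV chain, fell from 300 and 267 CPM to 210, 175 and 150 CPM (-0.67, edgeR adjusted p = 0.049). That call was kept in 6 of 12 alternatives (adjusted p up to 0.3) and was lost without either control or without betaSDmut replicate 2 or 3. The partners of Fras1 did not pass and were low in islets: Frem2 read 3.94 ± 0.181 CPM (n = 2) in controls and 3.7 ± 1.8 CPM (n = 3) in betaSDmut, and Frem1 0.648 ± 0.309 and 0.609 ± 0.229 CPM. Among 10 genes of cytosolic sulfotransferases and of the making, transport and breakdown of their sulfate donor, 4 of them sulfotransferases, 1 passed, Sult1c2, which fell from 6.58 and 4.2 CPM to 0.583, 1.03 and 1.41 CPM (-2.40, edgeR adjusted p = 0.0245), a call lost without either control or betaSDmut replicate 2 (up to 0.2). None of 9 genes of the Cyp4 family and of omega-hydroxyceramide synthesis passed in edgeR, and DESeq2 called 1. The 6 Cyp4 genes among them had unadjusted p-values of 0.0504 or more, and the 2 genes with an unadjusted p under 0.05 were Abhd5 and Elovl4, named here after their values were seen.

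In betaKO edgeR called none of 72 relatives, beside 1.56% of all genes. Of the 72, 16 had an unadjusted p under 0.05, beside 15.2% of all genes. DESeq2 called 5 of them, beside 798 of 15215 genes. Values there for genes called in betaSDmut were 24.5 and 24.2 CPM against 18 and 11.3 CPM for St8sia5, 49.5 and 55.5 CPM against 31.6 and 44.3 CPM for Npnt, and 4.9 and 8.12 CPM against 2.13 and 3.11 CPM for Sult1c2. In each of these 3 the betaKO libraries lay below both controls, as for 24.5% of all genes tested and 16 of the 72 relatives. Of the 8 relatives called lower in betaSDmut, 7 were tested in betaKO, and all 7 lay below both controls there; Camkv, which was not tested, went from 0 reads to 1 and 7. St8sia3, higher in betaSDmut, read 33.3 and 25.8 CPM in the 4-week controls and 51.4 and 44.5 CPM in betaKO.

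**Figure D3:**
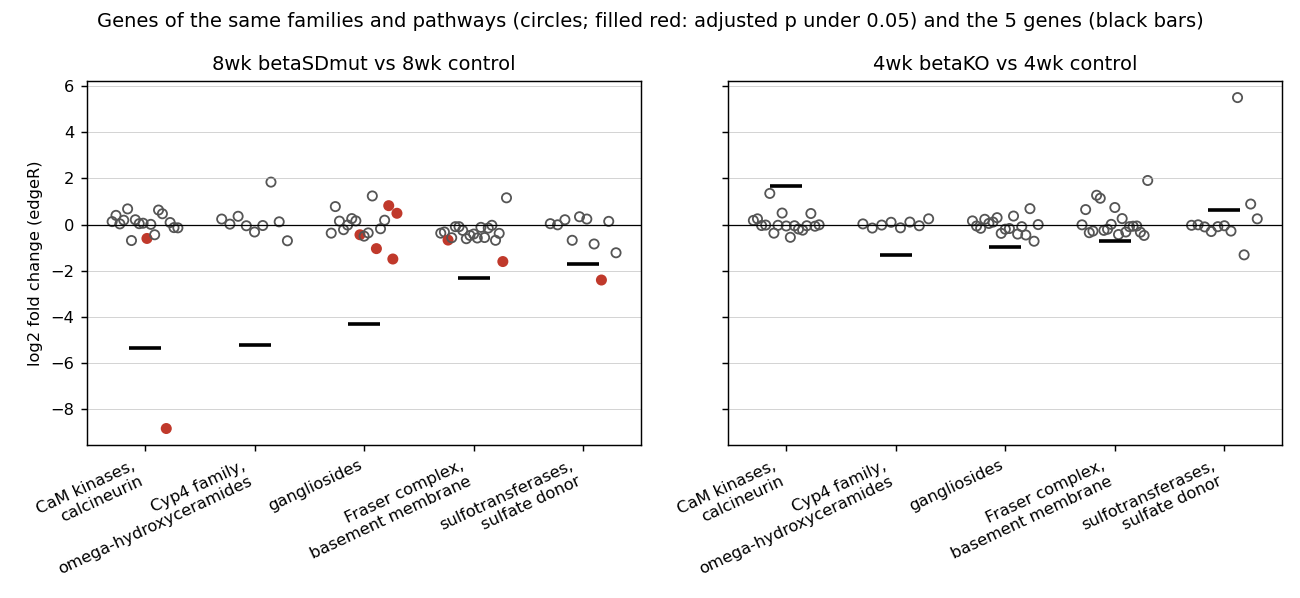
Log2 fold changes of genes of the same families and pathways as the 5 genes (circles, filled red where the edgeR adjusted p was under 0.05) and of the 5 genes themselves (black bars) in 8-week betaSDmut and 4-week betaKO islets. At 8 weeks the bars lie below nearly all circles of their family, with Camkv as the lowest circle, and in betaKO no circle is filled and Sult1b1 is the highest.

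In whole pancreas at E15.5, where endocrine cells are a small part of the tissue, none of the 5 genes passed in 3 controls against 4 SD mutants. All had an edgeR adjusted p of 1, none had an unadjusted p under 0.05 and DESeq2 called none. In this comparison 0.00534% of 18723 genes were called by edgeR, 28 genes by DESeq2, and 2.54% had an unadjusted p under 0.05. The 11 beta-cell markers summed to between 493 and 1120 CPM in controls and between 212 and 345 CPM in mutants, far below the islet sums. Of 78 relatives of the 5 genes edgeR called none, with 2 at an unadjusted p under 0.05 and 1 called by DESeq2.

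Fras1 was the most abundant of the 5 by CPM in embryonic pancreas, at 88.4, 163 and 102 CPM in controls and 114, 90.8, 75.2 and 93.6 CPM in mutants (log2 fold change -0.34, standard error 0.227). St8sia1 was at 11.2, 22.2 and 18.2 CPM in controls and 14, 14.2, 9.43 and 6.41 CPM in mutants. Its groups overlapped (log2 fold change -0.65, standard error 0.334). Cyp4f39 was near the limit of detection, between 6 and 42 reads a library or 0.155 to 1.02 CPM, and Sult1d1 between 19 and 94 reads or 0.492 to 2.22 CPM. At the share that remained in 8-week islets, Cyp4f39 would have stood at 0.014 CPM in the embryo. That is under the level of 3 reads a library (0.0709 to 0.0791 CPM), too low to measure exactly. Its mutant libraries held 9, 16, 33 and 33 reads (0.232 to 0.87 CPM), and its controls 42, 15 and 6 reads. No drop of that size was thus seen in whole pancreas. Sult1d1, at its own share, would have stood at 0.26 CPM, above the level of 3 reads.

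Camk2a varied in the embryo with muscle RNA. It read 4.5, 5.03 and 39.6 CPM in controls and 9.11, 42.9, 3.18 and 3.45 CPM in mutants (log2 fold change -0.16, standard error 1.18). The summed level of 9 skeletal muscle genes was 12.4, 11.2 and 5510 CPM in the same controls and 70.6, 6340, 14.9 and 25.9 CPM in the same mutants, so the libraries highest in Camk2a were those highest in muscle genes, 1 in each group. Their part in the Camk2a values was not tested. Without control replicate 3 or SDmut replicate 2 the log2 fold change of Camk2a ran to 1.62 and -1.64, and no such fit passed. A fit without both of these libraries did not pass either. The libraries left there read 4.5 and 5.03 CPM in controls and 9.11, 3.18 and 3.45 CPM in mutants.

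**Figure D4:**
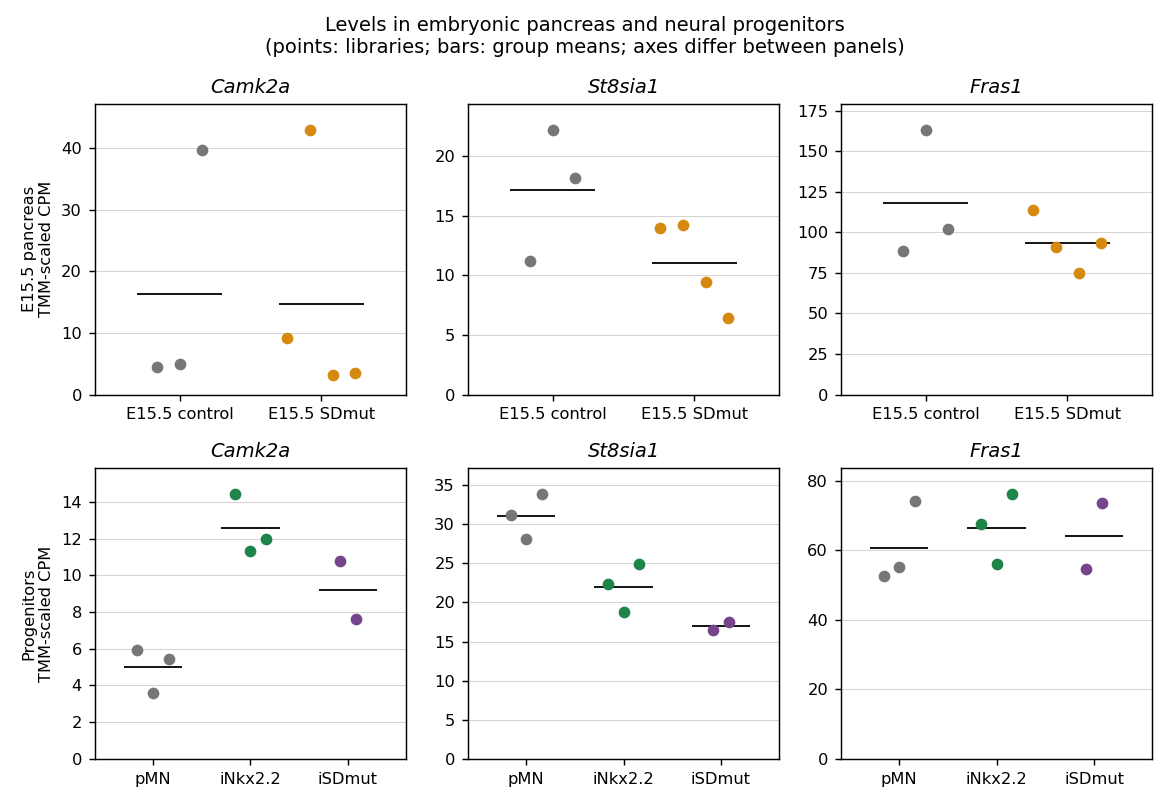
TMM-scaled CPM from 0 (linear axes, which differ between panels) of Camk2a, St8sia1 and Fras1 in embryonic pancreas (top) and progenitors (bottom), with libraries as points and group means as bars. In the embryo 1 library of each group stands high for Camk2a, and in progenitors Camk2a is higher and St8sia1 lower in both induced groups than in pMN.

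In the neural progenitors, Camk2a rose and St8sia1 fell when wildtype Nkx2.2 was induced. Nkx2-2 itself rose by 5.25 (log2) in iNkx2.2 and 4.72 in iSDmut, to 343 to 378 CPM and to 245 and 248 CPM. The pMN samples came from the iNkx2.2 line, and there were no uninduced iSDmut samples. Only the induced groups received doxycycline. Line, doxycycline and mutant Nkx2.2 thus cannot be told apart in iSDmut against pMN, nor doxycycline and Nkx2.2 in iNkx2.2 against pMN. In iSDmut against iNkx2.2, line, Nkx2-2 level and mutation cannot be told apart. In iNkx2.2 against pMN 9.49% of 15653 genes were called, and 4629 genes in place of 1486 when samples of the same number were paired. Cyp4f39, with 0 to 12 reads a library, and Sult1d1, with 0 reads in 7 of 8 libraries and 1 in the other, did not pass the filter on low counts and were not tested, so 3 of the 5 genes entered.

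Camk2a was at 5.95, 3.58 and 5.42 CPM in pMN, at 14.4, 11.3 and 12 CPM in iNkx2.2 and at 10.8 and 7.64 CPM in iSDmut. Both induced groups lay above pMN without overlap, as for 16% of genes tested in iNkx2.2 and 17.2% in iSDmut. The log2 fold change was 1.33 (standard error 0.234, edgeR adjusted p = 0.00985) for iNkx2.2 and 0.88 (0.258, edgeR adjusted p = 0.0978) for iSDmut, where DESeq2 (adjusted p = 0.0211) and the fit paired by number (edgeR adjusted p = 0.0115) passed. Whether the numbers pair iSDmut samples with pMN is not settled (r = 0.343 and 0.05). Without iNkx2.2 replicate 1 the value for iNkx2.2 had an edgeR adjusted p of 0.0545. iSDmut against iNkx2.2 gave -0.45 (0.256, edgeR adjusted p = 0.511). The 8 neuron markers moved with Camk2a: they summed to 744, 375 and 673 CPM in pMN, to 1400, 1050 and 1290 CPM in iNkx2.2 and to 1200 and 1110 CPM in iSDmut, with 3 of 8 called higher in iNkx2.2 and 2 in iSDmut. Their part in the Camk2a values was not tested.

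St8sia1 was at 31.2, 28.1 and 33.8 CPM in pMN, at 22.3, 18.8 and 24.9 CPM in iNkx2.2 and at 16.5 and 17.5 CPM in iSDmut. By CPM the 3 groups did not overlap. There pMN was above iNkx2.2, as for 15.4% of genes, and above iSDmut, as for 19.2%. Likewise iNkx2.2 was above iSDmut, as for 16.4%. In the authors' FPKM iNkx2.2 (2.61, 2.04 and 2.71) overlapped both pMN (3.32, 2.69 and 3.6) and iSDmut (2.6 and 2.33). Against pMN the log2 fold change was -0.50 (standard error 0.133, edgeR adjusted p = 0.0462) in iNkx2.2 and -0.87 (0.154, edgeR adjusted p = 0.0184) in iSDmut, where 3.54% of genes were called. The first call was kept in 3 of 14 alternatives, 1 of them the fit with samples paired by number. It was lost without any 1 of the 8 libraries, with edgeR adjusted p up to 0.144. The second was kept in 10 of 13, and lost without pMN replicate 1 (edgeR adjusted p = 0.0687) or either iSDmut library. The difference of the induced groups was -0.37 (0.151, edgeR adjusted p = 0.35), in a comparison that called 0.281% of genes. These 3 comparisons share libraries, so their values are not independent of each other.

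Fras1 did not pass in any progenitor comparison, at 52.5, 55.2 and 74.2 CPM in pMN, 67.4, 56.1 and 76 CPM in iNkx2.2 and 54.5 and 73.6 CPM in iSDmut (log2 fold changes of 0.13 and 0.08 against pMN, edgeR adjusted p of 0.686 and 0.86). Of 74 relatives of the 5 genes that were tested, edgeR called 6 in iNkx2.2, beside 9.49% of all genes, and 3 in iSDmut, beside 3.54%. DESeq2 called 13 in iNkx2.2 and 7 in iSDmut, the latter beside 1349 of 15595 genes. With samples paired by number edgeR called 15 in iNkx2.2, beside 4629 of 15653 genes. Camk2n1, the kinase II inhibitor that fell in betaSDmut islets, rose from 24.1, 16.2 and 21.3 CPM in pMN to 56.5, 45.3 and 44.4 CPM in iNkx2.2 and 49.6 and 50.5 CPM in iSDmut (log2 fold changes 1.25 and 1.28, edgeR adjusted p of 0.00205 and 0.0063), and both calls were kept in every alternative run, 14 and 13. Camkv rose in iNkx2.2 (0.67, edgeR adjusted p = 0.0478), as did Neu1, a lysosomal sialidase (0.64, edgeR adjusted p = 0.0302), and Sult4a1, a brain sulfotransferase (0.73, edgeR adjusted p = 0.0322), while Camk4 (-0.83, edgeR adjusted p = 0.039) and Frem2 (-0.90, edgeR adjusted p = 0.0217) fell. In iSDmut the other 2 called were B4galnt1 (-1.25, edgeR adjusted p = 0.0459) and Nid2, a basement membrane nidogen (-2.05, edgeR adjusted p = 0.0485). The calls besides Camk2n1 lay close to the threshold. That of Camkv was kept in 6 of 14 alternatives (adjusted p up to 0.19, lost without any 1 library but pMN replicate 3), that of Camk4 in 5 of 14 (up to 0.156, lost without any 1 pMN or iNkx2.2 library) and that of Sult4a1 in 8 of 14 (up to 0.0987, lost without any 1 of these but pMN replicate 3). Those of Neu1 and Frem2 were kept in 9 of 14 each (up to 0.112), both lost without pMN replicate 1 or 2 or iNkx2.2 replicate 1 or 3, and Frem2 also without pMN replicate 3. In iSDmut B4galnt1 was kept in 5 of 13 (up to 0.152) and Nid2 in 2 of 13 (up to 0.248), both lost without any 1 library but iSDmut replicate 2. In iSDmut against iNkx2.2 edgeR called none of the 74, with 20 at an unadjusted p under 0.05, beside 12.5% of all genes. DESeq2 called 3 of the 74 there, beside 496 of 15101 genes.

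Fras1 was the only 1 of the 5 genes to which the authors joined an Nkx2.2 site, in a table where 26% of 9971 islet genes have one. Fras1 lies on chromosome 5 (96373955 to 96784728, plus strand, mm10), and its site at 96402763 is in an intron 28.8 kb from the gene start. The site had log2 CPM values of 7.74 and 7.64 in the ChIP replicates, from 166 and 118 reads, and ranked 1050 of 6473 final sites. A further 3 final sites fell in introns of Fras1, at 83.5, 96.5 and 305.6 kb from its start, and the authors joined the last of these to the neighbouring gene Anxa3. Fras1 spans 410.8 kb, and 14.4% of 12769 genes hold a final site inside their limits.

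The windows of 101 bases centred on these 4 sites are shown because they are the only final sites inside any of the 5 genes. They are the plus strand of mm10 (GRCm38), with any copy of the Nkx2.2 core motif AAGTG, or CACTT on the other strand, in capitals.
Fras1 site at chr5:96402713-96402813, joined by the authors: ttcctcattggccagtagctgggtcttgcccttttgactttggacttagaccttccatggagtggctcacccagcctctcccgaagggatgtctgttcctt
Fras1 site at chr5:96457442-96457542: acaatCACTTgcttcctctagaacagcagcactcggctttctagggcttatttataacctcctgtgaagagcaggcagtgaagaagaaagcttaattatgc
Fras1 site at chr5:96470362-96470462: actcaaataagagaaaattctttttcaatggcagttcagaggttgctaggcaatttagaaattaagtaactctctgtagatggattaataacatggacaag
Fras1 site at chr5:96679455-96679555, joined to Anxa3: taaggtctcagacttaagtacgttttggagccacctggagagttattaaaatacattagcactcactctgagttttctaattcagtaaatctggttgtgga
The core stood in 1 of the 4 windows, the one 83.5 kb from the start, and in 22.7% of the 6473 final-site windows of the same length. The longer motif TNAAGTGG was in none of the 4 and in 2.16% of all. A match or its absence describes these letters only.

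The other 4 genes had no final site within 100 kb of their start, a distance within which 50.5% of 12769 genes have one. The nearest lay 287.5 kb from the start of Camk2a, 335.6 kb from Cyp4f39, 170.7 kb from St8sia1 and 1014.5 kb before Sult1d1. St8sia1 is 142.9 kb long, on the minus strand of chromosome 6 with its end at 142821545. Its nearest site, at 142793734 in Sult6b2, lay past that end and so much closer to the end than to the start. Among the wider set of binding events called by GEM, which the authors narrowed to the final sites, the nearest to Cyp4f39 was 125.5 kb before its start, and the counts within 100 kb remained 1 of 5 against 59.5% of genes. The ChIP was made in MIN6 cells, so a site used only in islets or progenitors would not be seen.

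**Figure D5:**
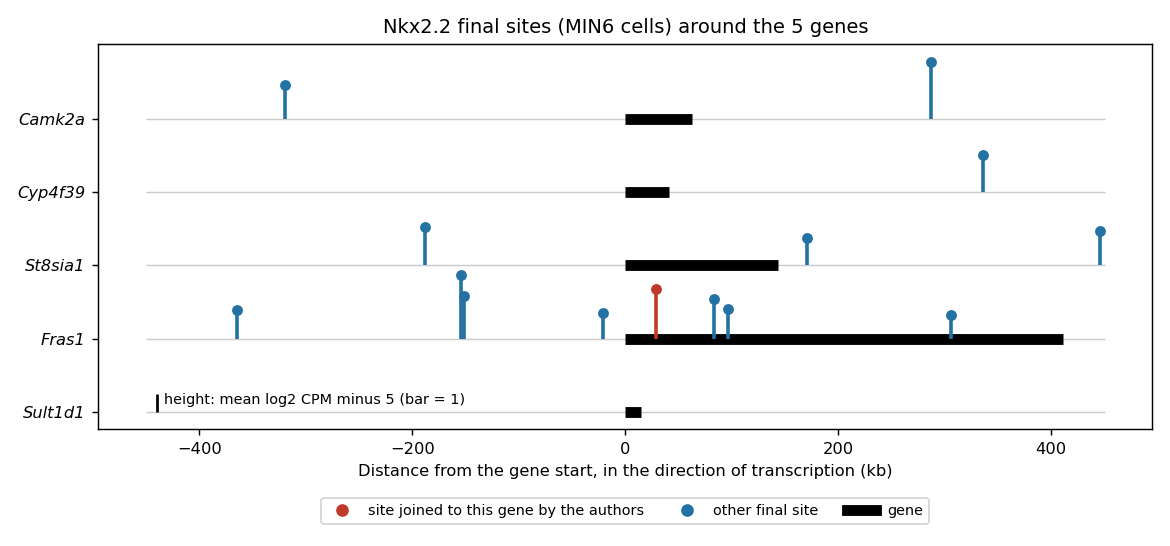
Final Nkx2.2 sites (stems, height giving the mean log2 CPM of the ChIP replicates minus 5) within 450 kb of the start of each gene, with the gene body as a black bar and distance in kb along the direction of transcription. The site joined to Fras1 by the authors is red, 3 more lie in Fras1, and no site within 450 kb of the start lies inside the other 4 genes.

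Promoters were compared because Cyp4f39 and St8sia1 moved together in both islet mutants while Sult1d1 did not follow in betaKO. RefSeq promoter windows (GRCm38.p6, 250 bases before to 50 after the start, on the strand of the gene) were matched for these 3 genes. Fras1, which also lay below its controls in both islet mutants, had no window in the set used.
Cyp4f39 at chr17:32452473-32452772, plus strand: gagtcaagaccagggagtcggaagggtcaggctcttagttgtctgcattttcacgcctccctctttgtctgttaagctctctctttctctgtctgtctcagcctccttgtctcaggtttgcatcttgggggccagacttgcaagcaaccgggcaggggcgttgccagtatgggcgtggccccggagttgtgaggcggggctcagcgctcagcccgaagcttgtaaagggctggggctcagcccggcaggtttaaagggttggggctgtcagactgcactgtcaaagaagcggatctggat
St8sia1 at chr6:142964403-142964702, minus strand: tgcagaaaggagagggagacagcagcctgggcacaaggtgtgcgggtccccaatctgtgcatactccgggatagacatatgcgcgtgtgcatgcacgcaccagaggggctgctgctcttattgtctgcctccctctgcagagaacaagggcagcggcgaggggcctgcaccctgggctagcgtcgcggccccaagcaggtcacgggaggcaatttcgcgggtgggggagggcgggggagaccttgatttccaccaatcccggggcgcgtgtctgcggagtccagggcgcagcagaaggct
Sult1d1 at chr5:87568957-87569256, minus strand: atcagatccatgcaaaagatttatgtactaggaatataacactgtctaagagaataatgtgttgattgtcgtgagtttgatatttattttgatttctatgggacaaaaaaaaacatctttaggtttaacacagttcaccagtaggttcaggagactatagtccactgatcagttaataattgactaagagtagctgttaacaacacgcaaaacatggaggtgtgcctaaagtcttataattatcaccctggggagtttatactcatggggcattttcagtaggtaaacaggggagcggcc
No core motif on either strand was in these 3 windows, beside 46.4% of 32851 RefSeq promoter windows that hold one, and the longer motif was in none, beside 3.21%.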

How the data were processed

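The authors deposited read counts per gene without normalization for islets, embryonic pancreas and progenitors, FPKM values for islets and progenitors, read counts at GEM binding events, and log2 CPM at final ChIP sites, per the deposited description. Their deposited comparison tables hold log2 fold changes, p-values and a call score of -1, 0 or 1. Per the submitters' processing notes the tools named were STAR, Cufflinks, edgeR 3.20.9, limma 3.34.9, DESeq2 and bedtools 2.17.0, with build mm10; roles, counting rule and use of strand are not given in the sources used here, so overlapping antisense genes (at Fras1 and St8sia1) could share reads. The 5 genes, the family lists and the marker lists were chosen with earlier results of these data known.

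The counts entered edgeR 4.0.16 under R 4.3.3 (TMM, filterByExpr, robust quasi-likelihood F test, Benjamini-Hochberg adjusted p under 0.05 over all genes tested; tested on simulated data). Islet and embryonic comparisons used their own groups, and progenitor comparisons all 8 libraries. Standard errors were derived from F and the log2 fold change. CPM values were scaled with all libraries of a table. Named genes were the 5 genes, fixed relatives, up to 4 called relatives per family and comparison, the 5 next lowest genes at 8 weeks (1 of them, and 1 site sequence, are not reported here), and 3 most similar profiles each; Hexa, Abhd5 and Elovl4, which complete a count, and the genes next in rank to Fras1 and Sult1d1 were named after their values were seen. Alternatives were DESeq2 1.42.0, other scalings, no filter, each library left out, a replicate block and all islets in one model. Further ones were a lane split, an Xist covariate, and both embryonic libraries with muscle RNA left out. Same-numbered pMN and iNkx2.2 samples deviated together (r = 0.535, 0.513 and 0.568), so their numbers appear to pair them. The main progenitor fits did not use this pairing, and fits with it are among the alternatives. For iSDmut r was 0.343 and 0.05 with same-numbered pMN samples and 0.332 and 0.112 with same-numbered iNkx2.2 samples. With 2 iSDmut samples these values cannot decide whether the numbers pair them.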

Additional observations from a re-analysis of the deposited data

Results flagged for a closer look

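Camk2a was 42.9 CPM in embryonic SDmut replicate 2, far from the other 3 mutants (9.11 at most), and that library held 6340 CPM of skeletal muscle genes. Sult1d1 was 2.22 CPM in the same library, against at most 0.542 CPM in the other 3. Each was 1 sample far from the rest of its group, in a check of the 5 genes in the embryonic mutants, the only group of 4 samples, and chance gives about 1 such sample in 20 checks.

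For Camk2a all betaSDmut libraries lay below and both betaKO libraries above the mean of their age-matched controls, with log2 fold changes 7.01 apart (-5.34 and 1.67). The same held for Sult1d1, 2.32 apart (-1.70 and 0.62). These differences were not tested, and age and mutation cannot be told apart in them.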

How the results depend on the processing

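No value of the 5 genes changed sign against a called direction. With the replicate number as a block, the counts of called genes were 665 at 8 weeks (1224 reported), 4629 for iNkx2.2 and 2626 for iSDmut against pMN, and 528 for iSDmut against iNkx2.2; St8sia1 in betaKO was -0.95 (edgeR adjusted p = 0.0547), Camk2a in betaSDmut -7.04, and Camk2a in iSDmut 0.90. Of the relatives, 6 were then called at 8 weeks (10 reported). Same-numbered islet libraries did not deviate together (r from -0.121 to -0.063). With 2 controls at each age these values mirror those of unlike numbers, so they cannot decide whether numbers pair islet libraries. DESeq2 called 1999, 798 (betaKO, 233 reported), 28 (embryo, 1 reported), 1349 (iSDmut, 554 reported) and 496 (44 reported) genes, and gave 0.88 for Camk2a in iSDmut. With total library size the counts were 127 in betaKO and 2 in the embryo, Sult1d1 was -1.61 at 8 weeks and 36.4 CPM in 8-week controls, Cyp4f39 6.78 CPM in betaKO, and St8sia1 -1.03 in betaKO and -0.40 in iNkx2.2. With no filter the counts were 372 in betaKO and 145 for iSDmut against iNkx2.2, and St8sia1 in iNkx2.2 was -0.45. All islets in one model gave 428 in betaKO and -0.95 for St8sia1 there. An Xist covariate gave 2796 at 8 weeks and 0 in the embryo, and a block on the number in the embryonic titles gave 0. Lane 2 alone gave 960 genes in iNkx2.2 (1486 reported) and -0.50 for St8sia1. With 4-week controls in place of 8-week controls, chosen after seeing the data, betaSDmut values were -0.56 for Camk2a, -1.95 for Fras1 and -1.84 for Sult1d1. Of the 5 genes, 0 have a final site or a GEM event within 10 kb and 4 within 1000 kb. The cause of these changes was not tested.

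Leaving out 1 library at a time gave 37 to 2765 called genes at 8 weeks, 4 to 478 in betaKO, 0 to 2 in the embryo, 412 to 1604 in iNkx2.2, 171 to 471 in iSDmut, and 1 to 467 for iSDmut against iNkx2.2. With an arm of 1 library, that library was assumed to vary like the others. Camk2a ran from -7.04 to -4.90 at 8 weeks and from 1.15 to 1.48 in iNkx2.2, Cyp4f39 from -1.40 to -1.21 in betaKO, and St8sia1 from -1.03 to -0.87 in betaKO, -0.58 to -0.40 in iNkx2.2 and -0.94 to -0.79 in iSDmut. Camk2a in betaSDmut and Cyp4f39 and Sult1d1 in progenitors rest on so few reads that their low levels are known only roughly.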
